A study of Mus musculus with 4 samples.

Results

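The 36 genes described here encode aminoacyl-tRNA synthetases, 20 of the cytosol and 16 of mitochondria, and were taken by gene symbol from the 55599 entries of the deposited table. All 36 lie on autosomes in single entries, and all 36 were among the 12997 genes tested, which had a mean FPKM (a read count scaled by gene length and library size) of at least 1. Symbols are the older ones, without the final 1 (Aars for Aars1). Genes whose symbol ends in 2 were taken as mitochondrial, except Tarsl2, which encodes a cytosolic threonyl-tRNA synthetase-like enzyme. Cytosolic Mars is not among the 36 and is given with the related genes further on. The cells were neurospheres, free-floating cultures of neural stem and progenitor cells, grown from C57BL/6 mouse cortex at embryonic day 12.5 and used at passage 3. Polyadenylated RNA of 2 wild-type (WT) libraries and 2 LncBAR-KO (KO) libraries was sequenced. The KO cells are labelled as lacking the long noncoding RNA LncBAR; the labels give no promoter, Cre or clone, and do not tell whether a genotype's libraries stem from different embryos or cultures. The p-values thus reflect only how far these libraries scatter, which may be technical.

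An aminoacyl-tRNA synthetase joins one amino acid to its matching tRNAs, and the ribosome then uses the charged tRNA. Cytosolic protein synthesis and the separate synthesis of the few proteins encoded in mitochondrial DNA mostly use different enzymes, all encoded in the nucleus. Gars (glycine) and Kars (lysine) each supply both compartments from one gene, glutaminyl-tRNA of mitochondria is made through Ears2 and an amidating enzyme, and Eprs charges both glutamate and proline tRNAs in the cytosol. Several cytosolic enzymes sit together in the multi-synthetase complex. Many cytosolic synthetase genes are known targets of ATF4, the transcription factor that accumulates when amino acids are short.

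Total counts were 17244057 to 18280445 per library, of which the 36 genes took 0.291% to 0.310%. No library repeated another: in all pairs the counts differed beyond sampling noise, with a chi-square of 7.57 to 17.4 for each degree of freedom. All 8 neural stem and radial glia markers had a mean FPKM of at least 1. So did 4 of 4 oligodendrocyte lineage, 4 of 4 astrocyte, 2 of 5 neuronal and 1 of 3 intermediate progenitor markers. None of 5 microglia, 4 endothelial, 5 fibroblast or meningeal and 4 red blood cell markers did, and the red blood cell markers were at 0 counts. Xist, the RNA that coats the inactive X chromosome, reached 36766 and 31563 counts in WT but 7 and 4 in KO, while the summed counts of 4 Y-linked genes were 0 in both WT libraries, 3962 in KO replicate 1 and 4449 in KO replicate 2. Genotype and this sex-chromosome difference therefore cannot be told apart in any comparison below, and LncBAR itself was not analysed here. In RNA from whole cultures, fewer cells of a type and less RNA per cell cannot be told apart either.

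Because many cytosolic synthetase genes are known ATF4 targets, the RefSeq promoters (GRCm38.p6, the mm10 build, from 250 bases before to 50 bases after the start site) were searched on both strands for TGATGNAA, the core of the C/EBP-ATF element. Promoters were found for 27 of the 36 genes, 13 cytosolic and 14 mitochondrial; Cars, Hars, Lars, Nars, Rars, Vars, Wars, Hars2 and Pars2 had no entry. The letters occurred in 5 of 13 cytosolic promoters (Aars, Gars, Iars, Tars and Yars), in 0 of 14 mitochondrial promoters and in 4.06% of all 27025 promoters. All 5 belong to the list of 11 cytosolic genes known as ATF4 targets. Of the 8 cytosolic promoters without the letters, 2 belong to genes of that list (Eprs and Sars), and Cars, Lars, Nars and Wars of the list could not be searched. One 30-base stretch that holds the element is shown for each of the 5 genes, since these letters occurred in cytosolic promoters only among the 27; each reads 5′ to 3′ on the strand of the gene, with the element in capitals.
Aars: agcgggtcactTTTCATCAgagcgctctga
Gars: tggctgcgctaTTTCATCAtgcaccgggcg
Iars: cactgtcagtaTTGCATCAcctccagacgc
Tars: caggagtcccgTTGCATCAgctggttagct
Yars: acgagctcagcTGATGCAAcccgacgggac

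Yars carries the element on its own strand and the other genes carry it on the opposite one, where TTGCATCA is TGATGCAA read from the other side. The stretches lie at chr8:111033840-111033869 (Aars, plus strand), chr6:55037960-55037989 (Gars, plus strand), chr13:49682126-49682155 (Iars, plus strand), chr15:11399655-11399684 (Tars, minus strand) and chr4:129189895-129189924 (Yars, plus strand). Aars had 2 matches, and the one not shown began 112 bases before the RefSeq start. The first base of the element shown lay at base 10 after the RefSeq start in Aars. It lay 30 bases before the start in Gars, 15 before in Tars, at base 8 after it in Iars and at base 4 after it in Yars. A match is a run of letters and not a measured binding site.

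The other motifs searched occurred in both classes. The ETS element CCGGAAG occurred in 4 of 13 cytosolic and 4 of 14 mitochondrial promoters, against 9.12% of all promoters. The NRF1 element (GCGCA, any base, GCGC), bound by a regulator of nuclear genes for mitochondria, occurred in 3 cytosolic and 2 mitochondrial promoters (4.78% of all). The E-box CACGTG occurred in 4 and 1 (7.24% of all), and the CRE core TGACGT in 1 and 3 (7.64% of all). The E-box reads alike on both strands, and no matches of different motifs overlapped in these promoters. The 4 mitochondrial promoters with the ETS element are shown for contrast with the cytosolic ones, in the same way.
Cars2: gagtgtagcctCTTCCGGgagtgggcggag
Mars2: tggcttccgcgCCGGAAGcggcggtaccgt
Rars2: agcagaggcgaCTTCCGGcgcggaggcggg
Sars2: acctccagcccCTTCCGGggttcctcctta

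Those stretches lie at chr8:11550771-11550800 (Cars2, minus strand), chr1:55237143-55237172 (Mars2, plus strand), chr4:34614942-34614971 (Rars2, plus strand) and chr7:28741803-28741832 (Sars2, plus strand). Mars2 carries the ETS element on its own strand and the other genes on the opposite one. It began 18, 23, 4 and 154 bases before the start of Cars2, Mars2, Rars2 and Sars2.

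The cytosolic genes were expressed at several times the level of the mitochondrial ones in each library. The median FPKM of the 20 cytosolic genes stood at 24.1 for both WT libraries, against 25.3 and 26.8 for KO replicates 1 and 2. For the 16 mitochondrial genes it stood at 4.31 and 4.56 in WT, against 4.66 and 4.78 in KO. The ranges overlapped in each library: mitochondrial genes reached 12.1 to 14.1 FPKM, and the lowest cytosolic gene stood at 4.33 to 4.83 FPKM. Levels between genes are compared here per length, on the FPKM scale.

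Gars (glycyl-tRNA synthetase, serving both compartments; chromosome 6, 55038007 to 55079500) had the highest FPKM of the cytosolic genes, at 50.8 and 45.3 in WT and 50.7 and 54.0 in KO. Kars, Sars, Nars and Vars followed at means of 40.7, 38.4, 37.9 and 36.1 FPKM over the 4 libraries. Neighbours in that order overlapped in their libraries, while all values of Kars lay above all values of Vars. The lowest was Tarsl2 (chromosome 7, 65644898 to 65692091), at 4.75 and 4.33 FPKM in WT and 4.83 and 4.55 in KO, below Cars at 9.58, 7.30, 10.7 and 10.1 FPKM. The cytosolic gene for threonine, Tars, stood at 13.2, 13.3, 14.8 and 14.8 FPKM, above its relative Tarsl2 in each library.

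Among mitochondrial genes Iars2 (isoleucine; chromosome 1, 185284726 to 185329396) had the highest FPKM, at 12.1 and 13.8 in WT and 12.2 and 14.1 in KO. Rars2 (arginine) came next with a mean of 9.76 FPKM. Nars2 (asparagine; chromosome 7, 96951505 to 97064758) was lowest, at 2.35 and 2.13 FPKM in WT and 2.41 and 2.39 in KO. Cars2, Ears2, Wars2 and Pars2 had means of 2.41, 2.53, 2.59 and 2.91 FPKM, and their libraries overlapped with one another, so the order at this end is not resolved; the libraries of Nars2 overlapped with those of Cars2, Ears2 and Wars2 too.

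**Figure D1:**
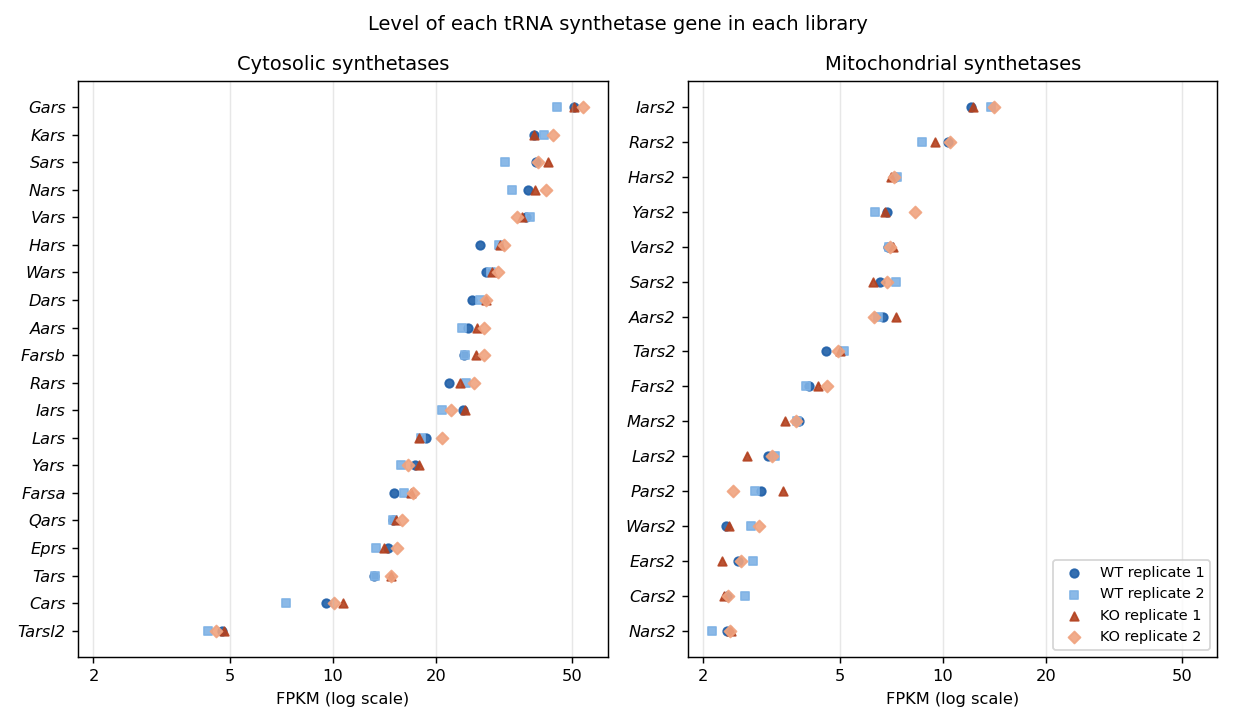
FPKM (log axis) of each gene in each of the 4 libraries, cytosolic genes on the left and mitochondrial genes on the right, ordered by mean. Gars sits highest at 45.3 to 54.0 FPKM and Nars2 lowest at 2.13 to 2.41, while the 4 libraries of a gene lie close together.

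For 15 amino acids a cytosolic and a mitochondrial gene could be set against each other, with the mean of the subunit genes Farsa and Farsb for phenylalanine and Eprs used for both glutamate and proline. The cytosolic gene was higher in all 4 libraries for 15 of 15. With the table's gene length Nars exceeded Nars2 most, with FPKM ratios of 15.8 and 15.7 in WT and 16.2 and 17.5 in KO. Wars exceeded Wars2 by ratios of 10.5 to 12.3, with replicate 1 of each genotype the higher one. Iars and Iars2 were closest, at ratios of 1.98 and 1.51 in WT and 1.98 and 1.56 in KO, where replicate 1 of each genotype lay above replicate 2 and the genotypes overlapped.

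The gene length in the table sets these levels. It was a median of 1.62 times the length of the gene's principal transcript in GENCODE M21 and up to 3.80 times (Cars2), and 3.69 times for Eprs. With the transcript length in its place, the cytosolic gene was higher in all 4 libraries for 15 of 15 amino acids again, while the median ratio moved from 4.95 to 3.98. The proline ratio went from a mean of 5.02 to 13.1, that of threonine from 2.86 to 1.46 and that of leucine from 6.22 to 2.94. The pair of largest mean ratio became Wars and Wars2 (15.9), ahead of Nars and Nars2 (14.0), while Iars and Iars2 had the smallest with either length. Kars then had the highest level (90.5) and Wars2 the lowest (3.49). The side on which each pair lay was the same with either length, and the order of single genes and of the pairs was not.

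**Figure D2:**
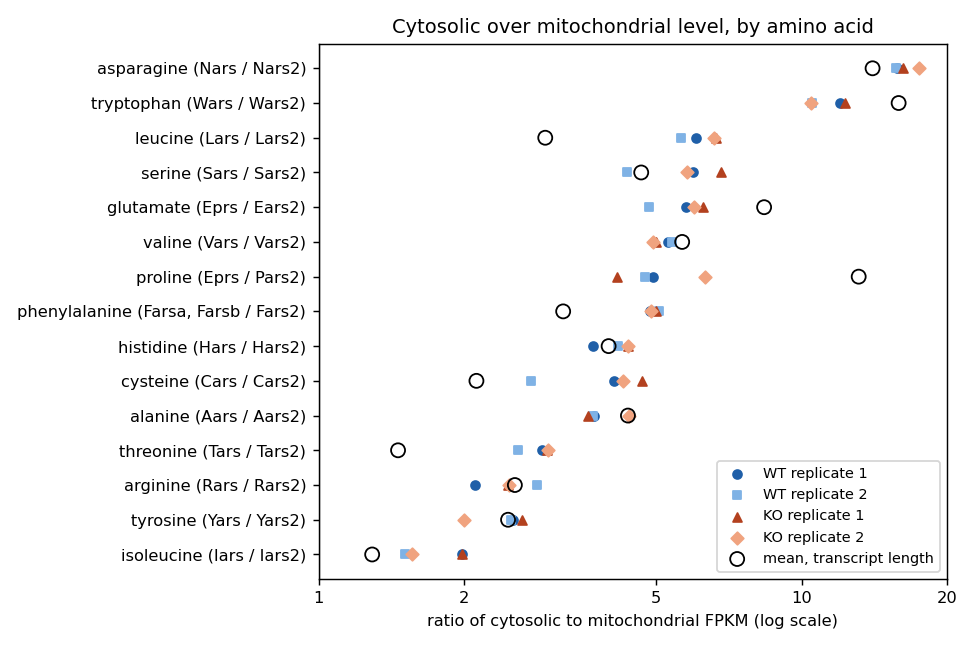
Ratio of cytosolic to mitochondrial FPKM (log axis) for 15 amino acids, 1 filled point per library, with open circles for the mean ratio when the principal transcript length replaces the table's gene length. All points lie above 1. Among filled points isoleucine is lowest at 1.51 to 1.98 and asparagine highest at 15.7 to 17.5, and among open circles tryptophan is highest at 15.9.

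The comparison of KO with WT sets apart libraries that differ both in genotype and in sex chromosomes, and no synthetase gene passed the test. With edgeR, 0 of 20 cytosolic and 0 of 16 mitochondrial genes had an adjusted p under 0.05, where 0.0692% of all tested genes did (0.0385% higher and 0.0308% lower in KO). That share is 9 genes, and with chromosomes X and Y left out it was 1 of 12545 genes, again with no synthetase gene. DESeq2 called 0 of the 36 as well. At an unadjusted p under 0.05 edgeR listed 2 cytosolic genes (Cars and Nars) and 0 mitochondrial genes, against 5.92% of all tested genes; both were higher in KO, as were 2.98% of all tested genes. The authors' deposited table likewise lists p-values under 0.05 for 2 of the 36 (0.0325 for Cars and 0.0439 for Nars), with no adjusted p-value under 1.00 after rounding. For 36 of 36 genes the 95% interval of the difference ended short of 1.5-fold on both sides, as it did for 78.8% of all tested genes.

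Although no single gene passed, the cytosolic genes lay mostly above WT in KO and the mitochondrial genes lay on both sides. Of the cytosolic genes 19 of 20 had a positive log2 fold change (KO over WT), with a median of 0.09, and 16 to 18 did when a library was left out. Of the mitochondrial genes 10 of 16 were positive, with a median of 0.02, and 7 or 8 were when a library was left out. Over all tested genes 51% were positive and the median was 0.00. Both KO libraries stood above both WT libraries in 11 of 20 cytosolic genes and 3 of 16 mitochondrial genes, against 18.1% of all tested genes. The 11 were Aars, Cars, Dars, Farsa, Farsb, Hars, Nars, Qars, Sars, Tars and Wars, and the 3 were Fars2, Nars2 and Vars2. Both KO libraries stood below in 1 cytosolic gene (Vars) and 2 mitochondrial genes (Hars2 and Mars2), against 18.7%. With total counts as the scaling the mitochondrial counts became 1 above and 4 below, and the cytosolic ones 10 and 1. Leaving out 1 library moved the mitochondrial median, to -0.05 without WT replicate 1, -0.03 without KO replicate 2 and about 0.00 without either other library. These counts describe the lists; the difference between the classes was not tested.

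Summed over the class, the cytosolic genes came to 2509 and 2401 CPM (counts scaled by the TMM library size) in WT and 2594 and 2648 CPM in KO, so the genotypes did not overlap. The mitochondrial sum stood at 489.8 and 507 CPM in WT, against 485 and 515 CPM in KO, where both WT values lay between the KO values. The ratio of the sums stood at 5.12 and 4.73 in WT, against 5.35 and 5.14 in KO, and WT replicate 2 was lowest. As means the cytosolic sum was 2455 ± 76.6 CPM in WT and 2621 ± 38.5 CPM in KO, and the mitochondrial sum 498 ± 12.3 and 500.3 ± 21.3 CPM (SD, n = 2 each). The summed FPKM of the 8 neural stem and radial glia markers was also apart by genotype, at 2648 and 2756 in WT against 2847 and 2956 in KO. Mean FPKM of these 8 ran from 4.10 to 1458, so single genes weigh heavily in that sum. The sums of the astrocyte markers overlapped, at 45.9 and 36.9 in WT against 39.5 and 30.3 in KO. So did those of oligodendrocyte lineage markers (197 and 207 against 206 and 200) and neuronal markers (45.8 and 46.8 against 46.7 and 45.7). Their part in the synthetase values was not tested.

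**Figure D3:**
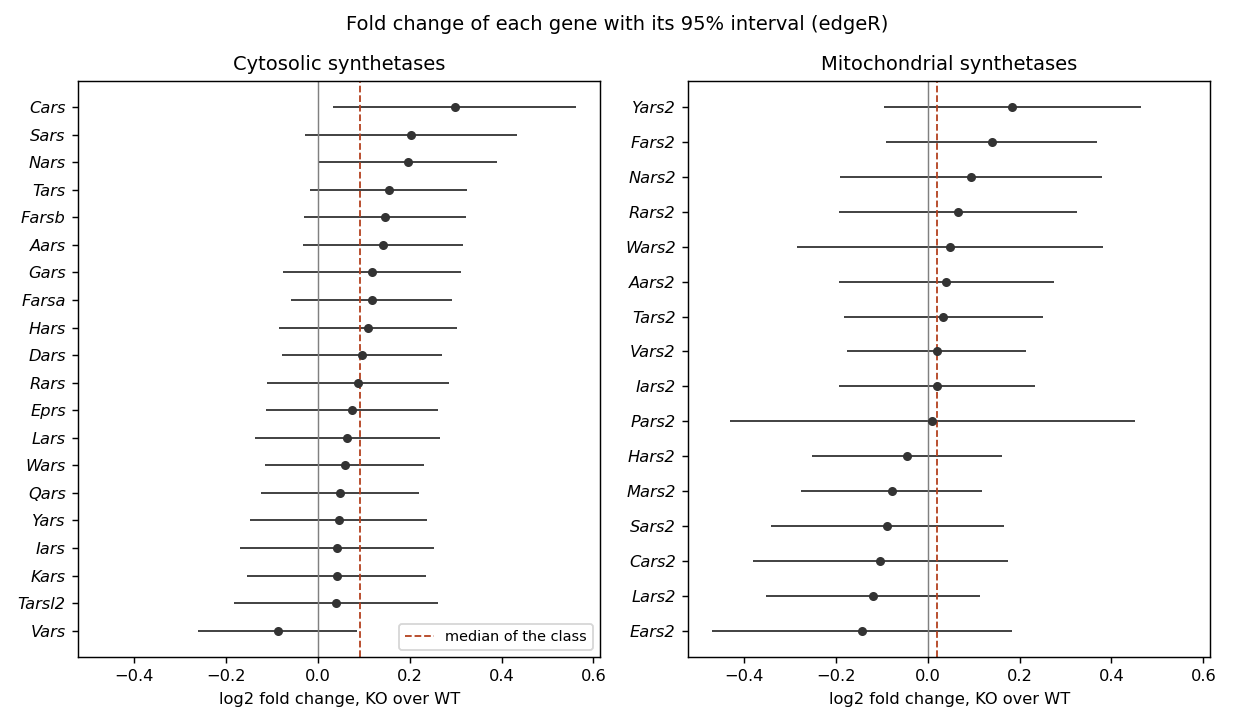
Log2 fold change (KO over WT) of each gene with its 95% interval from edgeR, ordered within the class, with a dashed line at the class median (0.09 cytosolic, 0.02 mitochondrial). Nearly all cytosolic points lie to the right of 0 and the mitochondrial points lie on both sides; no gene passed after adjustment.

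Cars (cysteinyl-tRNA synthetase; chromosome 7, 143557230 to 143600090) had the smallest p of the 36 genes. It stood at 64.0 and 48.6 CPM in WT and at 71.6 and 66.8 CPM in KO. The KO libraries lay above both WT libraries, and WT replicate 2 lay well below the rest. The log2 fold change was 0.30 ± 0.12 (SE; edgeR adjusted p = 0.811). It was 0.51 without WT replicate 1, where Cars passed (edgeR adjusted p = 0.0180), and 0.11 without WT replicate 2.

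Nars (asparaginyl-tRNA synthetase; chromosome 18, 64499647 to 64516652) stood at 164 and 147 CPM in WT and at 172 and 184 CPM in KO. The genotypes did not overlap, and the WT libraries differed by more than the gap between WT replicate 1 and KO replicate 1. The log2 fold change was 0.20 ± 0.09 (edgeR adjusted p = 0.811) and became 0.12 without WT replicate 2. Sars (seryl-tRNA synthetase, whose enzyme also prepares the tRNA used for selenocysteine) stood at 205 and 166 CPM in WT and 221 and 206 CPM in KO. WT replicate 2 was again the low library, and WT replicate 1 was less than 1 CPM below KO replicate 2. Its log2 fold change of 0.20 ± 0.10 (edgeR adjusted p = 0.813) became 0.06 without WT replicate 2.

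Tars (threonyl-tRNA synthetase; chromosome 15, 11382301 to 11399665) differed most evenly: 79.2 and 79.3 CPM in WT against 88.7 and 87.8 CPM in KO. The libraries of a genotype lay closer together than the genotypes did. Its log2 fold change of 0.15 ± 0.08 did not pass (edgeR adjusted p = 0.813) and was 0.15 to 0.16 whichever library was left out. Farsb, one of the paired subunit genes of phenylalanyl-tRNA synthetase, stood at 64.4 and 64.6 CPM in WT and 69.7 and 73.0 CPM in KO (log2 fold change 0.15 ± 0.08, edgeR adjusted p = 0.830). The gene of the other subunit, Farsa, stood at 69.7, 73.9, 77.6 and 78.2 CPM, also without overlap (log2 fold change 0.12 ± 0.08, edgeR adjusted p = 0.839).

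Most of the remaining cytosolic genes were nearer to no difference. Aars (alanine) stood at 234 and 224 CPM in WT and 248 and 258 CPM in KO, without overlap (log2 fold change 0.14 ± 0.08, edgeR adjusted p = 0.830). Vars (valine) was the only cytosolic gene on the other side, at 209 and 213 CPM in WT and 202 and 195 CPM in KO (log2 fold change -0.09 ± 0.08, edgeR adjusted p = 0.867). Gars and Kars, which serve both compartments, had log2 fold changes of 0.12 ± 0.09 and 0.04 ± 0.09, and their genotypes overlapped. The value of Gars was 0.03 without WT replicate 2 and 0.21 without WT replicate 1. Iars, Yars and Tarsl2 had log2 fold changes of 0.04, 0.05 and 0.04, each turning negative without KO replicate 1 or without WT replicate 2.

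The members of the multi-synthetase complex differed little between genotypes. Dars, Eprs, Iars, Kars, Lars, Qars and Rars had log2 fold changes of 0.04 to 0.10 with a median of 0.06, 7 of 7 positive and 0 past the test. Without KO replicate 2 the values of Kars and Lars turned negative, and without WT replicate 1 that of Kars did. Their summed level stood at 957 and 940.1 CPM in WT, against 964 and 1019 CPM in KO, with KO replicate 2 apart from the rest. Mars, the methionyl-tRNA synthetase of the same complex, stood at 109.6 and 98.9 CPM in WT and 108 and 113 CPM in KO (log2 fold change 0.09 ± 0.08, edgeR adjusted p = 0.875). The scaffold genes Aimp1, Aimp2 and Eef1e1 had log2 fold changes of 0.11 ± 0.08, 0.08 ± 0.12 and 0.20 ± 0.11, none past the test in edgeR.

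Among mitochondrial genes Yars2 (tyrosine; chromosome 16, 16302965 to 16309640) had the smallest p. It stood at 21.97 and 20.1 CPM in WT and at 21.6 and 26.2 CPM in KO. KO replicate 2 alone was high and the genotypes overlapped. The log2 fold change of 0.18 ± 0.13 (edgeR adjusted p = 0.839) was 0.03 without KO replicate 2. Fars2 (phenylalanine) stood at 23.7 and 23.2 CPM in WT and 25.1 and 26.6 CPM in KO, without overlap (log2 fold change 0.14 ± 0.10, edgeR adjusted p = 0.848).

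Lars2 (leucine) stood at 34.8 and 36.3 CPM in WT and 30.1 and 35.4 CPM in KO, with KO replicate 1 low (log2 fold change -0.12 ± 0.11, edgeR adjusted p = 0.865). Ears2 (glutamate) stood at 13.2 and 14.5 CPM in WT and 11.8 and 13.3 CPM in KO, overlapping (log2 fold change -0.14 ± 0.15, edgeR adjusted p = 0.888). Mars2 (methionine) stood at 43.6 and 42.9 CPM in WT and 39.6 and 42.3 CPM in KO, the genotypes being apart by less than 1 CPM (log2 fold change -0.08 ± 0.09, edgeR adjusted p = 0.897). These 3 genes thus had values on the opposite side to most cytosolic genes, each by little more than its SE or less, and each value depended on single libraries. Without KO replicate 1 they were -0.00 (Lars2), -0.06 (Ears2) and -0.03 (Mars2), and without KO replicate 2 they were -0.24, -0.23 and -0.13. The fewest counts were those of Pars2 (proline), at 165 and 153 in WT and 185 and 136 in KO, and its log2 fold change of 0.01 ± 0.20 had the widest interval. Of the other mitochondrial genes, Aars2, Iars2, Rars2, Tars2, Vars2 and Wars2 had log2 fold changes of 0.02 to 0.07, Nars2 stood at 0.09, and Cars2, Hars2 and Sars2 lay between -0.10 and -0.05. Aars2, Iars2, Rars2, Tars2 and Wars2 each turned negative with at least 1 of the libraries left out (Iars2 to -0.08 without KO replicate 2), and Nars2 was 0.02 without WT replicate 2 and 0.17 without WT replicate 1.

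Within amino acids, the cytosolic gene had the larger log2 fold change in 12 of 15 pairs. The exceptions were phenylalanine (0.13 for the mean of Farsa and Farsb against 0.14 for Fars2), valine (-0.09 for Vars against 0.02 for Vars2) and tyrosine (0.05 for Yars against 0.18 for Yars2). Cysteine had the widest gap, 0.30 for Cars against -0.10 for Cars2. Serine followed with 0.20 for Sars against -0.09 for Sars2. Some gaps were below the SE of either gene, such as tryptophan (0.06 against 0.05), isoleucine (0.04 against 0.02) and arginine (0.09 against 0.07). Eprs entered both the glutamate and the proline pair, and the count of pairs was not tested.

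The libraries of one genotype did not move alike, and this was most visible among the cytosolic genes known as ATF4 targets (Aars, Cars, Eprs, Gars, Iars, Lars, Nars, Sars, Tars, Wars and Yars). All 11 lay below their mean over the 4 libraries in WT replicate 2, as did 6468 of all 12997 tested genes. In 8 of the 11 the lowest value lay there, as it did in 3064 of all tested genes. The median deviation of the 11 from that mean (log2 scale) stood at 0.02 and -0.10 in WT, against 0.05 and 0.09 in KO. The other 9 cytosolic genes deviated by -0.07 and -0.01 in WT and 0.04 and 0.06 in KO, with WT replicate 1 lowest. The mitochondrial genes deviated by -0.00 and 0.03 in WT and -0.04 and 0.02 in KO.

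The cytosolic lists thus depended on different WT libraries. The median log2 fold change of the ATF4 list was 0.12, with 11 of 11 positive and 0 past the test, and it was 0.06 without WT replicate 2. That of the other cytosolic genes was 0.09 (8 of 9 positive, 0 past the test) and was 0.05 without WT replicate 1 and 0.13 without WT replicate 2. The 5 cytosolic genes with the C/EBP-ATF letters shown above had a median log2 fold change of 0.12 (0.04 to 0.15). The 8 cytosolic genes whose promoters lack them, 2 of these on the ATF4 list, had a median of 0.08 (0.04 to 0.20). Both KO libraries stood above both WT libraries in 2 of the 5 and in 5 of the 8, against 18.1% of all tested genes. In WT replicate 2 these sets deviated by -0.10 and -0.05.

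The genes of the amino acid response showed the same low library. Of 22 listed, 21 were tested, 0 passed, 17 were positive and the median log2 fold change was 0.13. Their median deviation stood at 0.08 and -0.23 in WT, against 0.13 and 0.04 in KO. Of the 21, 16 were lowest in WT replicate 2, against 3064 of all 12997 tested genes, and 8 were highest in WT replicate 1. Both KO libraries stood above both WT libraries in 4 of the 21, against 18.1% of all tested genes. They stood below in 1, against 18.7%. Asns, Atf4 and Mthfd2, given next, are among those 4, so they do not stand for the list. Asns, asparagine synthetase, stood at 78.1 and 49.8 CPM in WT and 87.6 and 81.6 CPM in KO (log2 fold change 0.40 ± 0.16, edgeR adjusted p = 0.811). Atf4 itself stood at 244 and 222 CPM in WT and 260 and 274 CPM in KO (0.19 ± 0.08, edgeR adjusted p = 0.811). Mthfd2, a mitochondrial folate enzyme, stood at 40.7, 32.8, 46.1 and 43.3 CPM (0.28 ± 0.11), and Phgdh, the first enzyme of serine synthesis, at 321, 342, 321 and 334 CPM (-0.02 ± 0.08). The part of this response in the synthetase values was not tested.

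**Figure D4:**
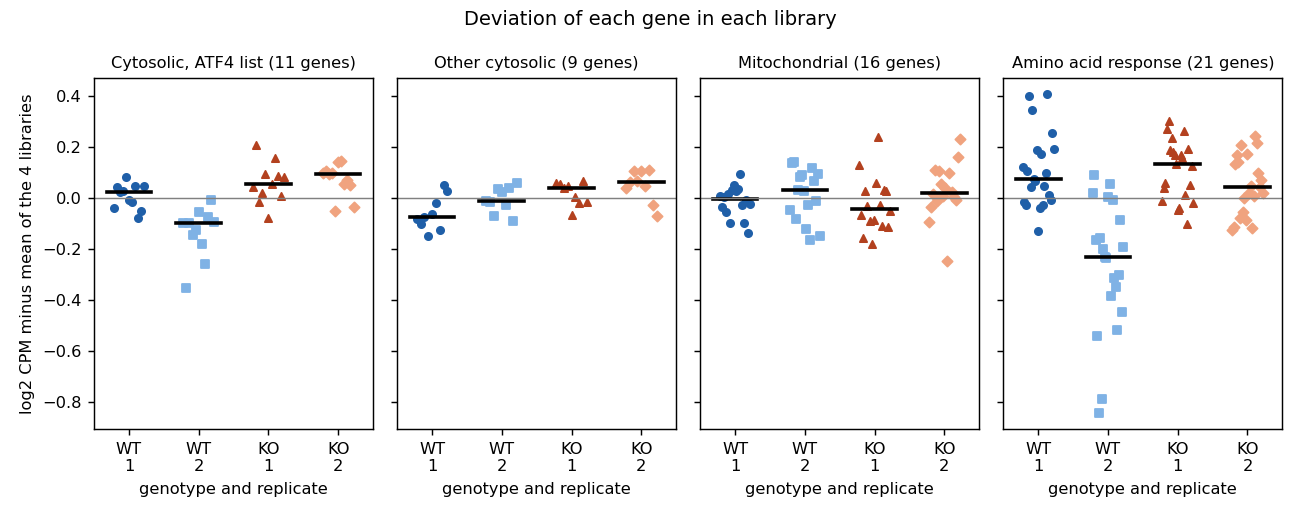
Log2 CPM of each gene minus its mean over the 4 libraries, by library, for cytosolic genes of the ATF4 list, other cytosolic genes, mitochondrial genes and amino acid response genes; black bars are medians. In WT replicate 2 the medians are -0.10 for the ATF4 list and -0.23 for the amino acid response, against -0.01 and 0.03 for the other cytosolic and the mitochondrial genes.

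Related genes of tRNA supply had no member past the test in edgeR. Of 13 tRNA processing genes 11 were positive with a median log2 fold change of 0.09; Hsd17b10, a subunit of mitochondrial RNase P, stood at 45.6 and 48.6 CPM in WT and 51.2 and 52.4 CPM in KO (0.14 ± 0.09), and Rtcb, the tRNA ligase, had a log2 fold change of 0.09 ± 0.09. Of 31 tRNA modification genes 30 were tested, 16 were positive and the median was 0.01; Elp3, a subunit of Elongator, was at 0.07 ± 0.08 and Alkbh1, a demethylase, at -0.17 ± 0.09. Adat3 was listed at 0 counts in each library.

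Of 19 genes for RNA polymerase III and tRNA export 6 were positive and the median log2 fold change was -0.04. Bdp1, a subunit of the initiation factor TFIIIB, stood at 68.7 and 61.4 CPM in WT and 55.3 and 55.5 CPM in KO (-0.23 ± 0.09, edgeR adjusted p = 0.811). Maf1, the repressor of the polymerase, was at -0.15 ± 0.08.

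The partners of the mitochondrial synthetases had values on both sides of 0. Of 4 genes for amidation and formylation of mitochondrial tRNAs 3 were positive with a median log2 fold change of 0.06, Gatb being at 0.14 ± 0.14 and Gatc at -0.03 ± 0.10. Of 9 mitochondrial translation factors 3 were positive with a median of -0.03, with Tufm at -0.03 ± 0.08 and Mtif2 at -0.10 ± 0.09. Aarsd1, an editing protein, was below the expression filter with 28, 18, 15 and 20 counts.

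The library kit did not keep strand, so reads from genes that overlap on opposite strands could not be told apart. Hars and Hars2, the histidine pair, run in opposite directions on chromosome 18 and overlap by 198 bp, and Hars2 had 42.2% of the mean counts of Hars. Hars stood at 66.8 and 75.9 CPM in WT and 76.4 and 77.6 CPM in KO and Hars2 at 31.6, 31.9, 30.5 and 31.0 CPM, with Hars lowest in WT replicate 1 and Hars2 lowest in KO replicate 1. Overlapping genes on the other strand with at least 10% of the counts of the member were Naxd for Cars2, Ubfd1 for Ears2, Nrn1 and Lyrm4 for Fars2 and Rab3gap2 for Iars2, and Tm2d3 overlaps Tarsl2 on the same strand. The values of these 7 members may hold reads of their neighbours or lack reads shared with them, and how many was not tested. A neighbour without counts is not found in this way. Exosc6, which overlaps Aars by 1326 bp on the same strand, had a mean of 0 counts.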

How the data were processed

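The authors deposited 1 table with whole-number read counts per gene and library, FPKM values computed with the table's gene length, and their own comparison of KO with WT. Per the file headers, that comparison holds a p-value with its adjusted form, a mean signal per genotype and a log2 fold change; its tool was not given in the sources used here. Per the labels' protocols, poly(A) RNA was prepared with a kit without strand and sequenced in 150 bp pairs. The mm10 build, TopHat2 2.1.1, Cufflinks 2.2.1 and cutadapt 1.16 are named in the submitters' processing notes; counting tool and annotation were not given in the sources used here. The 178 entries without a gene name held 0.0806% of counts; they have gene IDs and were kept.

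Counts were tested with the quasi-likelihood method of edgeR 4.0.16 (R 4.3.3), with genotype as its sole term, TMM scaling and 12997 genes with a mean FPKM of at least 1. P-values were two-sided and Benjamini-Hochberg adjusted over these genes (threshold 0.05). The SE is the log2 fold change divided by the root of F. Deviations used log2 CPM with a prior count of 2. Alternatives used DESeq2 1.42.0 and limma 3.58.1. An exact test of 2 against 2 cannot go below 0.333. The fit was tested on counts simulated with the dispersions estimated from these data. Changed genes were drawn only from those above a minimum mean CPM, and no change under 1.5-fold was simulated. The fit recovered 78% of 50 genes changed 1.5-fold and 98% of 50 changed 2-fold. It also made 24 false calls among the 12997 genes.

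The members, lists and tests were chosen with earlier results of these data known. Named members are the 5 of smallest p and the highest and lowest level per class, and the pairs of largest and smallest ratio; from other lists, the member of smallest p and of highest FPKM. Aars, Farsa, Hars, Hars2, Kars, Vars, Pars2, Wars, Yars, Asns, Atf4 and other genes outside this rule were named after their values were seen. Of 27 promoters, 24 end in bases of a GENCODE M21 transcript of the gene; motifs were chosen after the counts were seen. Some related genes and promoter stretches are not reported here.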

Additional observations from a re-analysis of the deposited data

How the results depend on the processing

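No cytosolic or mitochondrial synthetase gene passed under 14 of the 15 alternatives; the exception is Cars without WT replicate 1, so the cytosolic count ranged from 0 to 1 when a library was left out, and the mitochondrial count stayed at 0. Such a fit takes a genotype's single library to vary as the other genotype does. Leaving out a library gave cytosolic median log2 fold changes between 0.0829 and 0.127 and mitochondrial ones between -0.0497 and 0.000465. The 9 calls over all genes became 31 with no filter, 4 and 3 in limma on log2(FPKM + 1) and log2(FPKM + 0.1), 1 without chromosomes X and Y (fewer genes tested), and 15 to 86 with a library left out; the cause was not tested. With the replicate number as a block there were 24 calls over all genes and no synthetase gene among them (smallest edgeR adjusted p = 0.200); the labels do not say that the numbers pair libraries, and deviations of same-numbered libraries correlated at 0.0903 over 12997 genes. The median ratio of cytosolic to mitochondrial FPKM was 4.95 with the table's length and 3.98 with the principal transcript length. RLE, upper quartile and total count scaling left 19 of 20 cytosolic genes positive; 16 were without KO replicate 1 or WT replicate 2, 17 without KO replicate 2 and 18 without WT replicate 1. Mitochondrial genes had 136 to 2261 counts per library, which limits the precision of the lowest ones. With a mean FPKM of at least 5, 19 cytosolic and 7 mitochondrial genes were tested.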
